A study of Homo sapiens with 18 samples.

Results

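The zinc finger genes of chromosome 19 were followed in RNA-seq of 6 ovarian cancer cell lines. The members were all listed genes on chromosome 19 whose symbol is ZNF with a number and at most 1 further letter, which gave 173 of the 12853 genes in the table and 173 of the 823 listed genes of that chromosome. The rule itself uses symbol and position and no measured level. The lines form 3 pairs. A2780, labelled an endometrial/ovarian cancer line and platinum-sensitive, is paired with CP70, which was selected from it for platinum resistance in culture. PEA1 (sensitive) and PEA2 (resistant) were derived from the ascites of 1 patient with high-grade serous ovarian cancer (HGSOC), PEA1 before platinum chemotherapy and PEA2 at relapse. PEO1 (sensitive) and PEO4 (resistant) came from another HGSOC patient, both after platinum treatment, PEO1 before and PEO4 after resistance arose in the clinic. All were cultured in RPMI-1640 with serum, and the labels name no drug given before the RNA was taken. There were 3 rRNA-depleted libraries per line and 18 in all. Each state is represented by 1 line per pair, and the labels do not say whether replicates were separate cultures, so p-values measure only the spread between these libraries.

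Most ZNF genes of chromosome 19 stand in tandem arrays that grew by repeated duplication, and they encode DNA-binding proteins built from rows of zinc fingers. Many also carry a KRAB domain, which recruits the corepressor TRIM28 and, through it, the histone methyltransferase SETDB1, heterochromatin proteins and histone deacetylases. Many bind remnants of transposable elements and repress them, and the clusters themselves are known to carry repressive histone methylation.

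Of the 173 members, 172 matched the GRCh37 annotation, 98 on the plus and 74 on the minus strand, 170 as protein coding and 2, ZNF702P and ZNF542, as pseudogenes. ZNF229 did not match. The short arm held 56 and the long arm 117. A cluster was taken to end where the next start site lay more than 1 Mb away, which gave 7 clusters of 5 or more members, numbered from the short-arm end, and left 12 members outside. Cluster 1 held 12 members (ZNF557 to ZNF562, first and last start sites 7069455 and 9785734 in hg19), cluster 2 held 15 (ZNF627 to ZNF791, 11670189 to 12721732) and cluster 3 held 28 (ZNF101 to ZNF254, 19779605 to 24269978). On the long arm, cluster 4 held 17 (ZNF146 to ZNF607, 36705998 to 38210691), cluster 5 held 10 (ZNF576 to ZNF296, 44100544 to 45579846), cluster 6 held 33 (ZNF175 to ZNF331, 52074551 to 54024235) and cluster 7 held 46 (ZNF628 to ZNF446, 55987699 to 58985384). Another listed gene overlapped 44 members, and paralogs in these arrays share sequence. How reads that fit several copies were counted is not given in the sources used here, so values of near-identical neighbours are uncertain.

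Reads on listed genes ranged from 1344098 to 7067336 per library, lowest in PEA1 (1344098 to 1670866) and highest in a PEO1 library. Of 13 Müllerian and epithelial marker genes, among them PAX8, WT1, EPCAM and MUC16, all 13 were at or under the detection floor in A2780 and 10 in CP70, against 3 in PEA1, 0 in PEA2, 2 in PEO1 and 2 in PEO4. The leukocyte marker PTPRC (20.1 to 25.1 CPM) and the endothelial marker CDH5 (25.3 to 36.1 CPM) were detected in PEA2 and were at or under the floor in every other line, and the summed fibroblast markers DCN and LUM reached 33.4 to 36.4 CPM in CP70 and at most 4.48 CPM elsewhere. Of the genes listed as markers, the table held 1 of 4 for leukocytes, 1 of 3 for endothelium and 2 of 5 for fibroblasts. So few genes do not identify a cell type. The part of all these markers in the results was not tested. In bulk RNA, fewer cells that express a gene and less RNA of it per cell cannot be told apart.

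A member was called off in a line when all 3 libraries lay at or under 2.18 CPM, the level of 3 reads in the shallowest library, on when all 3 lay above it, and mixed otherwise. The limit was the same CPM in every line, and it covers counting error only. By this limit 107 of 173 members (61.8%) were on in all 6 lines, against 72% of all listed genes. A further 48 members (27.7%) were off in at least 1 line and on in at least 1 other, against 21.3% of all genes, and 18 were mixed somewhere and off nowhere. No member was off in all 6 lines.

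The lines differed in how many members they had silent. In A2780 36 members were off (20.8%, against 13.5% of all genes) and in CP70 27 (15.6%, against 12.2%). The HGSOC lines stood lower. PEA1 had 5 off (2.89%, against 7.62%), PEA2 14 (8.09%, against 6.92%), PEO1 1 (ZNF69) and PEO4 1 (ZNF57), that is 0.578% each, against 5.52% and 5.73% of all genes. So A2780 and CP70 had a larger share of members than of all genes off, and both PEO lines a smaller share. Of the 73 other chromosome 19 genes that start within a cluster, 15.1% were off in A2780, 12.3% in CP70, 2.74% in PEO1 and 4.11% in PEO4. For ZNF genes of other chromosomes these shares were 10.8%, 11.8%, 0.98% and 2.45%. A low share in the PEO lines was thus not particular to the members. The count for PEA2 depended on the limit: 7 members had at most 3 reads in each PEA2 library, and 31 were off when the limit was doubled to 6 reads.

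**Figure D1:**
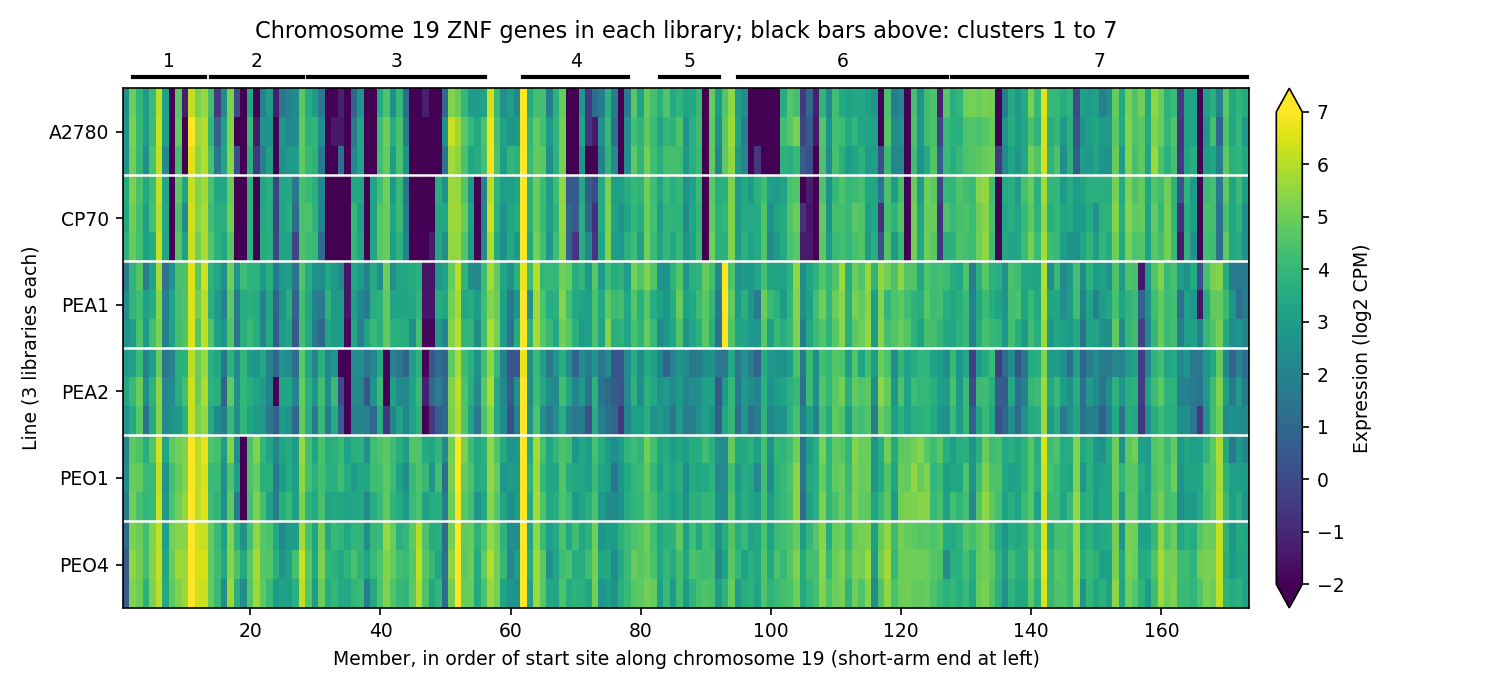
Expression in log2 CPM (colour) of the 173 members in order of start site (horizontal axis) in the 18 libraries (vertical axis, 3 rows per line), with the 7 clusters marked by black bars. Dark columns in A2780 and CP70 are members with few or no reads, the dark patch in cluster 6 is a run of 5 members off in A2780 and on in CP70, and PEA2 is darker than PEA1 over clusters 4 to 7.

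**Figure D2:**
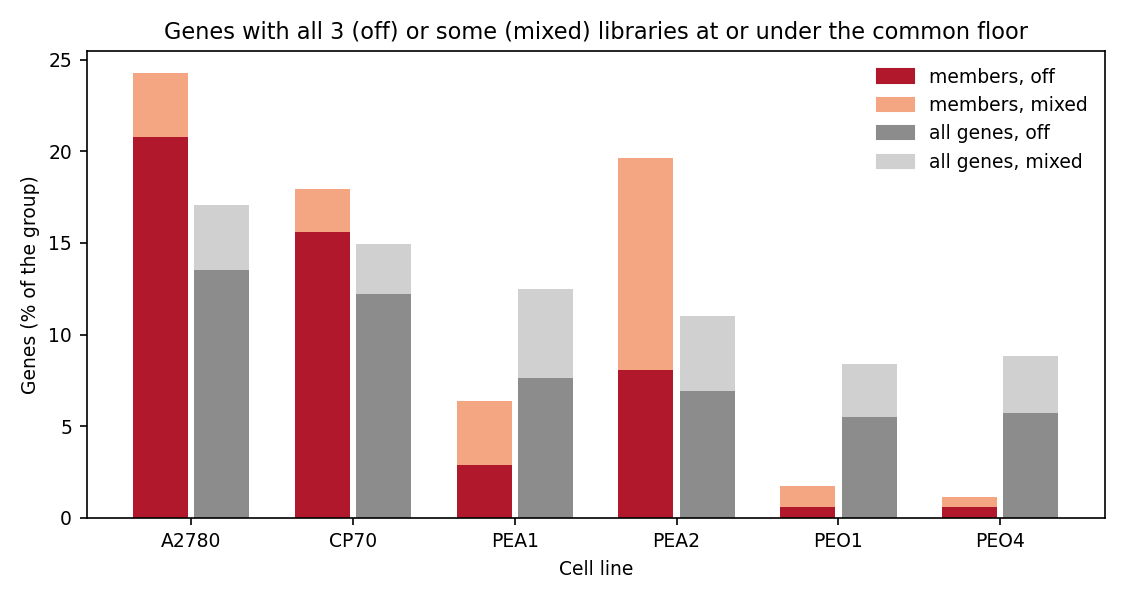
Percent of the 173 members (red) and of all 12853 genes (grey) that were off (dark) or mixed (light) in each line. The members' dark bar stands above that of all genes in A2780 (20.8% against 13.5%) and below it in PEO1 and PEO4 (0.578% each, against 5.52% and 5.73%).

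A2780 and CP70 shared most of their silent members. Off in both were 24 members (13.9%, against 9.69% of all genes), 9 of them without a read in any of the 6 libraries, and 13 of the 24 were on in all 4 HGSOC lines: ZNF559, ZNF439, ZNF844, ZNF253, ZNF93, ZNF100, ZNF43, ZNF829, ZNF229, ZNF880, ZNF528, ZNF677 and ZNF813. By cluster the 24 fell as 1, 4, 8, 2, 1, 5 and 3 from cluster 1 to cluster 7. Stretches of neighbours were off together. ZNF100, ZNF43, ZNF208 and ZNF257 were off in A2780 and CP70 over 284824 bases between first and last start site, joined in A2780 by ZNF492, and ZNF610, ZNF880 and ZNF528 were off in both over 61604 bases.

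The member with the widest range of line means in each cluster was off in both A2780 and CP70. ZNF43 of cluster 3 (chromosome 19, 21987752 to 22034927, minus strand) had 0 reads in all 6 libraries of A2780 and CP70. It had 17, 21 and 35 reads in PEA1, 26, 58 and 30 in PEA2, 69, 65 and 140 in PEO1 and 189, 212 and 154 in PEO4. Its mean rose from 22.3 CPM in PEO1 to 66.2 CPM in PEO4 (log2FC 1.56, SE 0.31, FDR 0.000391), and the libraries of these lines did not overlap. ZNF677 of cluster 6 (53738634 to 53758151, minus strand) likewise had no read in A2780 and CP70, and 21.8, 8.99, 31.5 and 31.3 CPM on average in PEA1, PEA2, PEO1 and PEO4. ZNF559 of cluster 1 (9434448 to 9461838, plus strand) had no read in A2780 and CP70, 7.90 and 5.01 CPM in PEA1 and PEA2, and 22.8 and 31.3 CPM in PEO1 and PEO4. All 3 genes were silent in the A2780 pair and detected in each HGSOC library.

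For ZNF844 of cluster 2, A2780 had 2 reads over its libraries and CP70 none, while PEO4 had 132, 166 and 129. ZNF229 of cluster 5 had no read in the A2780 pair, 40, 36 and 43 reads in PEA1 and 10, 29 and 18 in PEA2 (log2FC -1.86, SE 0.34, FDR 9.27e-05). ZNF135 of cluster 7, which overlaps ZSCAN18 on the other strand, was silent in the A2780 pair and weak in PEA1 (1, 0 and 6 reads) and PEA2 (5, 9 and 1 reads). It was on in PEO1 with 28, 28 and 74 reads and in PEO4 with 69, 99 and 57 reads, and the change between these (log2FC 1.38, SE 0.65) did not pass the test (FDR 0.0969). A smaller set was silent in 4 lines and on in PEO1 and PEO4 alone by the same limit: ZNF486, ZNF208 and ZNF257, all in cluster 3. They were picked out after their values were seen.

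Resistance in the A2780 pair was compared first. Members were called at |log2FC| above 2 and FDR below 0.05 with limma, with FDR taken over all 12853 genes. Of the 173 members 17 were higher in CP70 than in A2780 (9.83%, against a background of 5.66% of all genes) and 3 were lower (1.73%, against 3.4%). In either direction 20 were called (9.06% of all genes), and quantile normalization lowered the 17 to 11. In 16 of the 20 a line had at most 3 reads in each library, so most calls set a silent line against an active one. Of the 73 other genes within the cluster spans 9.59% were called higher and 1.37% lower, shares near those of the members. For ZNF genes of other chromosomes the shares were 2.45% and 2.94%. All 3 CP70 libraries lay above all 3 A2780 libraries for 60 members (all genes: 28.6%) and below them for 27 (all genes: 25.9%). By FDR alone 48 were higher (27.7%, against 22.2%) and 19 lower (17.7% of all genes), or 12 without A2780 replicate 3. The median member lay near 0, with a log2FC of 0.03 beside -0.02 over all genes, a sign that quantile normalization turned to -0.02 for the members. The calls in CP70 fell mainly in cluster 6, with 7 of 33 members, and cluster 4, with 4 of 17, while cluster 5 had 0 of 10. The summed Müllerian and epithelial markers also differed within this pair, at 2.52 to 3.13 CPM in A2780 and 91.2 to 97.1 CPM in CP70, and their part in these changes was not tested.

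The longest run of neighbours called in the same direction in any pair lay in cluster 6. ZNF350, ZNF615, ZNF614, ZNF432 and ZNF841 follow each other on the minus strand over 107279 bases between first and last start site, and no other listed gene starts among them. ZNF350 encodes a KRAB zinc finger repressor known as a binding partner of BRCA1, and the other 4 are less studied members of the same family. The 5 genes together held 1 read in the 3 A2780 libraries and 812 reads in the 3 CP70 libraries. All 5 were off in A2780 and on in CP70.

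The deposited table carries no chromatin or methylation value for these genes. The 250 bases before each start site are printed, from RefSeq promoters of GRCh38.p14, since these members changed together, with ZNF616, the next member, which stayed on in A2780. For ZNF432 the RefSeq start differs from the start of the annotated gene given below, which lies next to that of ZNF841. The bases are in lower case with each CG dinucleotide, the site of DNA methylation, in capitals, 5′ to 3′ on the gene's own strand, which is the minus strand for all 6. From ZNF350 to ZNF616 they span chr19:51986841-51987090, chr19:52008212-52008461, chr19:52028380-52028629, chr19:52048839-52049088, chr19:52095766-52096015 and chr19:52139939-52140188.
ZNF350: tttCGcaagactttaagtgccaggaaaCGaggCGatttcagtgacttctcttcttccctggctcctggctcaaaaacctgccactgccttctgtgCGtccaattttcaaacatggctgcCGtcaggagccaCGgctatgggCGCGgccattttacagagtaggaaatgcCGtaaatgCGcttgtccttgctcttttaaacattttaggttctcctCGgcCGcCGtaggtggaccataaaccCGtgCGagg
ZNF615: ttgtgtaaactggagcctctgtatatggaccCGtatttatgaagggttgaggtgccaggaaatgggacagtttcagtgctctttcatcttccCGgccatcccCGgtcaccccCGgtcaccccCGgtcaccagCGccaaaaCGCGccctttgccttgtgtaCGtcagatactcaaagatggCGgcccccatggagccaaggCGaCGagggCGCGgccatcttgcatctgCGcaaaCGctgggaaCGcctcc
ZNF614: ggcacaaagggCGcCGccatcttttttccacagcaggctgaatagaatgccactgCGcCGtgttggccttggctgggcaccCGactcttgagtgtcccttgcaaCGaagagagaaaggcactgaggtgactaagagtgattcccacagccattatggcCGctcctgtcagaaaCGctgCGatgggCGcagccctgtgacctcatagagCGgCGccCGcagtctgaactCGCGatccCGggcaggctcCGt
ZNF432: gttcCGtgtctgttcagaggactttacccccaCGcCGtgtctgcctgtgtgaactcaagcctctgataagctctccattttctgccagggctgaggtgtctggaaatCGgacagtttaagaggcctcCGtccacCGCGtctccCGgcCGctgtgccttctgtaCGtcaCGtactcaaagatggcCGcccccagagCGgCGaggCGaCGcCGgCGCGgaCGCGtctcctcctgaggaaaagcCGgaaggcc
ZNF841: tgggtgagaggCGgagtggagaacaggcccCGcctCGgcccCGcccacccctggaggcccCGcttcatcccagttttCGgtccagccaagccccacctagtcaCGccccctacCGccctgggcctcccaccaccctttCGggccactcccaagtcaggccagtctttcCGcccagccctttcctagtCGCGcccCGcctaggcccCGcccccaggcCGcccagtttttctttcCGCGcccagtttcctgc
ZNF616: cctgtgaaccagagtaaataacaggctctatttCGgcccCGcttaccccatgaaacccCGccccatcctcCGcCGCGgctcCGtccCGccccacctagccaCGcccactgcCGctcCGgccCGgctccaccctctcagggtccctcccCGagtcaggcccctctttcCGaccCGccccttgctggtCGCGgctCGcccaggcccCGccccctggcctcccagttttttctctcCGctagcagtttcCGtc
The 5 windows of the run held 15, 17, 17, 22 and 17 CG dinucleotides in the order printed, and that of ZNF616 held 21. The count of CG thus overlapped between the genes that were silent in A2780 and the neighbour that was not.

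ZNF350 (chromosome 19, 52467593 to 52490109) had 0, 0 and 0 reads in A2780 and 45, 45 and 35 in CP70. That is at least 28.6-fold higher in CP70, with the 0 reads of A2780 set to 3 over its libraries (limma log2FC 5.84, SE 0.34, FDR 1.59e-11). The other 4 lines held 3.56 CPM (PEA2) to 11.8 CPM (PEO4) on average, so CP70 at 9.08 CPM lay within their range and A2780 alone was silent. ZNF614 (52516018 to 52533493), the strongest of the run, had no read in A2780 and 115, 99 and 89 in CP70, at least 69.3-fold higher (log2FC 7.10, SE 0.25, FDR 1.07e-14). Its CP70 level of 21.9 CPM stood beside 20.5 CPM in PEO1, 22.8 in PEO4, 25.6 in PEA1 and 13.1 in PEA2.

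ZNF615 (52494585 to 52511483) had 0, 0 and 1 reads in A2780 against 84, 49 and 44 in CP70, a ratio of 121 with a 95% counting interval of 21.5 to 4821. ZNF432 (52534631 to 52598991) had none against 51, 24 and 18, at least 21.3-fold, and ZNF841 (52567718 to 52599018) none against 44, 42 and 28, at least 26.1-fold. ZNF432 and ZNF841 overlap on the same strand, so the counting could move reads between them. None of the 5 was called in the PEA or PEO pair, where their log2FC ran from -1.02 to -0.87 and from 0.09 to 0.87. In the PEA pair 4 of them, all but ZNF615, were lower by the FDR alone.

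The members on both sides of the run were on in A2780. ZNF649 (52392488 to 52408293), the member before it, had 19, 14 and 9 reads in A2780 and 65, 47 and 50 in CP70 (log2FC 1.40, SE 0.27, FDR 0.000285), higher in CP70 by the FDR but on in A2780. ZNF616 (52616344 to 52643191), the member after it, had 43, 72 and 31 reads in A2780 and 55, 48 and 43 in CP70 (log2FC -0.47, SE 0.25, FDR 0.15), with a mean of 14.8 CPM in A2780 above 10.6 CPM in CP70. The 5 silent genes thus lay between neighbours that gave reads in every library of A2780.

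**Figure D3:**
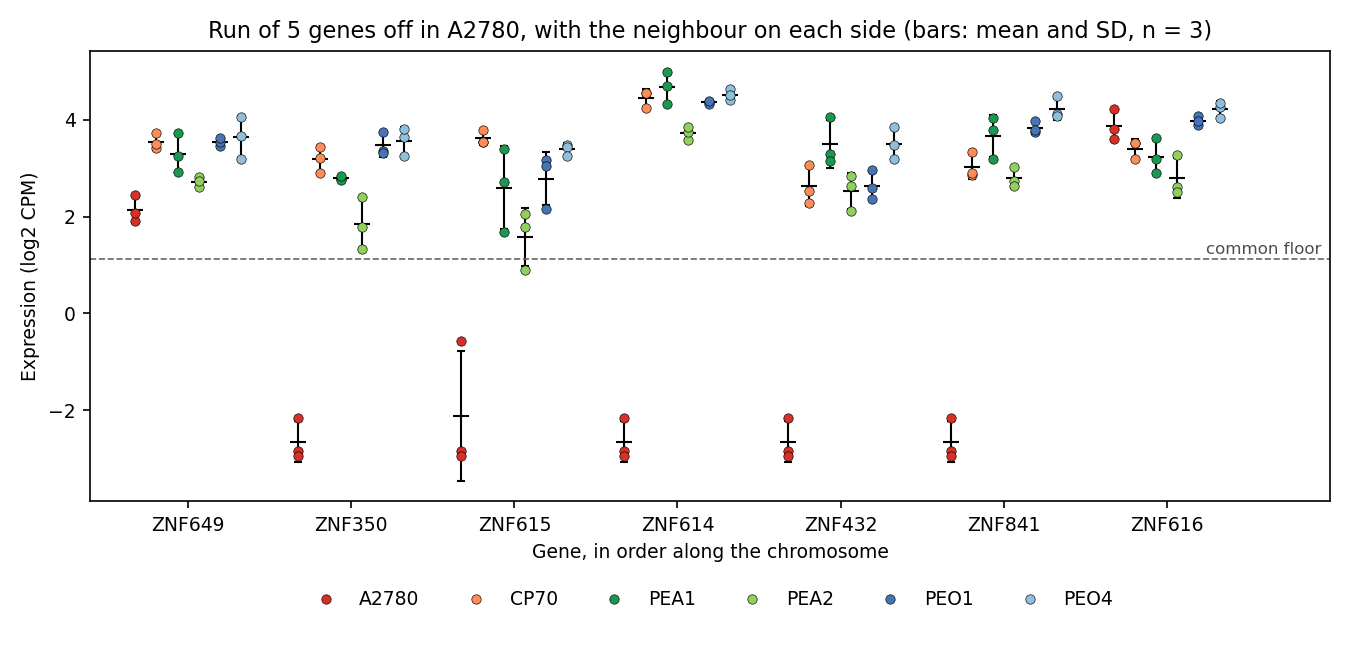
Expression in log2 CPM (vertical axis) of the 5 members of the run and the member on each side (horizontal axis) in each library (points, coloured by line), with mean and SD of 3 libraries and the common floor as a dashed line. In A2780 the 5 inner genes sit below 0 and the outer genes above the floor, while all CP70 points lie above the floor for all 7.

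Outside the run, 5 more members were off in A2780 and on in CP70: ZNF426, ZNF85, ZNF492, ZNF793 and ZNF772. With the run this made 10 members (5.78%, against 2.87% of all genes). ZNF426 of cluster 1 had 1, 0 and 0 reads in A2780 and 58, 21 and 33 in CP70, a ratio of 76.8 with a counting interval of 13.5 to 3061. ZNF85 and ZNF492 of cluster 3 had no read in A2780, and in CP70 59, 40 and 36 reads and 77, 46 and 42 reads, at least 30.9-fold and 37.7-fold higher. In cluster 3 each of these 2 ended a stretch of members off in A2780, so the next member along was not off there. The members before them in those stretches stayed off in CP70: ZNF43 and ZNF257, near ZNF492, had 0 and 1 reads in CP70. Cluster 3 also held members on in all 6 lines, among them ZNF430 and ZNF91.

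The opposite switch occurred in 1 member of this pair (0.578%, against 1.54% of all genes). ZNF726 of cluster 3 (24097678 to 24127961, plus strand) had 28, 42 and 26 reads in A2780 and none in CP70, at least 46.7-fold lower (log2FC -6.54, SE 0.36, FDR 7.66e-12), and was on in the other 4 lines at no less than 4.41 CPM on average. The other 2 members called lower, ZNF90 and ZNF439, lay at the floor. ZNF90 had 1, 1 and 5 reads in A2780 and none in CP70, and lost its call without A2780 replicate 3 (log2FC -1.89). ZNF829 and ZNF568 of cluster 4, which run in opposite directions from start sites 308 bases apart, had no read in A2780 and a few in CP70 (8, 8 and 6, and 9, 6 and 2), and were called higher, but CP70 stayed off by the common limit. Their log2FC of 3.41 and 2.87 fell to 1.66 and 1.27, below the threshold, with 2 reads instead of 0.5 added before taking logs. The 250 bases before the ZNF568 start site, on the side towards ZNF829, held 18 CG dinucleotides (chr19:36916082-36916331, plus strand, GRCh38.p14).
ZNF568: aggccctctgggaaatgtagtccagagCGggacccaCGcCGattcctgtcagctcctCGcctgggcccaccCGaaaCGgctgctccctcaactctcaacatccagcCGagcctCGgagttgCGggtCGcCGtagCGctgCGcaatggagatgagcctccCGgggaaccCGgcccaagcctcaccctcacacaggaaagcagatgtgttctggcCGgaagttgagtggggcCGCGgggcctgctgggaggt

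The PEA pair showed a broad decline across the members, most of it in changes of moderate size. By the common limit 9 members were on in PEA1 and off in PEA2 (5.20%, against 2.34% of all genes) and 0 the other way (all genes: 3.04%). The mean of 142 of the 173 members was lower in PEA2 than in PEA1, with a median log2FC of -0.74 beside 0.01 over all genes. By FDR alone 90 members were lower (52.0%, against 29.4% of all genes) and 6 higher (3.47%, against 32.5%). All 3 PEA2 libraries lay below all 3 PEA1 libraries for 92 members (all genes: 30.8%) and above them for 8 (all genes: 31.8%). At |log2FC| above 2 only 10 members were called lower (5.78%, against 6.15%) and 1 higher (0.578%, against 7.93%; 14.1% of all genes in either direction), so the share of large decreases was near that of all genes. Quantile normalization raised the 10 to 26. Summed over members, expression was 3136, 2952 and 2960 CPM in PEA1 and 1714, 2283 and 1870 CPM in PEA2, with no overlap.

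The decline was steepest on the long arm. Of its 117 members 75 were lower by FDR (64.1%) and 1 was higher, with a median log2FC of -0.87, while of the 56 on the short arm 15 were lower and 5 higher (median -0.20). Cluster 4 fell most in the median (-1.59, 15 of 17 members lower), followed by cluster 5 (-1.36, 8 of 10), cluster 6 (-0.79, 18 of 33) and cluster 7 (-0.63, 24 of 46). The short-arm clusters 1, 2 and 3 had medians of -0.26, -0.36 and -0.14. Cluster 5 summed to 134, 138 and 112 CPM in PEA1 and to 40.01, 57.3 and 49.8 CPM in PEA2, and cluster 4 went from 428 ± 14.9 to 227 ± 39.6 CPM (SD, n = 3).

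Other chromosome 19 genes moved with the arm as well. Those on the short arm that were no member had a median log2FC of 0.51 (181 of 339 higher and 22 lower by FDR), and those on the long arm -0.29 (55 of 311 higher and 114 lower). Within the span of cluster 4, 4 of the 5 other genes were lower (median -1.22), whereas within cluster 5 the 15 others had a median of 0.03. ZNF genes of other chromosomes had a median of -0.31 (77 of 204 lower, 43 higher). Both arms thus had members below the median of their other genes, and the long arm stood below the short arm for both kinds. DNA copy number was not analysed here.

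The libraries of this pair were uneven. PEA2 replicate 2, the deepest of the 3 libraries, gave 2283 CPM over the members and the others 1714 and 1870. The transcripts of members had a median GC content of 41.9%, against 47.5% over all genes and 60.3% for the other genes of the short arm. After a correction of each library for GC content the median of the members was -0.75 and 94 were lower by FDR. Leaving out each library in turn gave 83 to 97. The summed Müllerian and epithelial markers stood at 498 to 659 CPM in PEA1 and 4276 to 4540 CPM in PEA2, and PTPRC and CDH5 gave reads in PEA2 and none in PEA1. The part of these cell markers in the decline was not tested.

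The longest run of called neighbours in this pair was in cluster 4. ZNF569 (37902057 to 37960177, minus strand) had 25, 38 and 69 reads in PEA1 and 9, 7 and 5 in PEA2 (log2FC -3.18, SE 0.31, FDR 3.05e-08). ZNF570 (37958487 to 37979554, plus strand), which overlaps ZNF569 on the other strand, had 16, 24 and 22 against 2, 5 and 4 (log2FC -3.09, SE 0.34, FDR 1.37e-07). ZNF793 (37997841 to 38039664, plus strand) had 19, 27 and 24 against 2, 4 and 1 (log2FC -3.90, SE 0.34, FDR 6.73e-09). All 3 were on in every library of PEA1, and their start sites span 39753 bases. Since the strand setting of the counting is not given, reads of ZNF569 and ZNF570 in their overlap cannot be assigned to one of them.

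ZNF714 of cluster 3 (21264965 to 21308073, plus strand) was the sharpest loss. It had 45, 39 and 48 reads in PEA1 and 0, 0 and 1 in PEA2, a ratio of 220 with a counting interval of 38.8 to 8760 (log2FC -6.64, SE 0.35, FDR 4.83e-12). Every other line expressed it at 27.1 to 42.0 CPM, so PEA2 alone stood apart. ZNF114 (48773338 to 48790865, plus strand), outside the clusters, had 205, 181 and 216 reads in PEA1 and 5, 24 and 23 in PEA2 (log2FC -4.47, SE 0.31, FDR 2.52e-10). Here PEA1 was the unusual line, with 134 CPM against 5.11 to 25.9 CPM elsewhere.

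The lower calls included ZNF90, with 6, 10 and 14 reads in PEA1 and 0, 3 and 3 in PEA2. ZNF30 (8, 4 and 4 reads against 2, 5 and 2) and ZNF580 (4, 5 and 6 against 1, 3 and 3) were off in PEA2 and on in all other lines, with log2FC of -1.47 and -1.74, short of the threshold. For both genes PEA1 and PEA2 lay near the floor, and ZNF580 overlaps ZNF581 and CCDC106 on the same strand. The 1 member called higher was ZNF506 of cluster 3, with 7, 4 and 3 reads in PEA1 and 23, 66 and 35 in PEA2 (log2FC 2.26, SE 0.34, FDR 1.03e-05). It lost the call without PEA1 replicate 3 (log2FC 1.91).

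**Figure D4:**
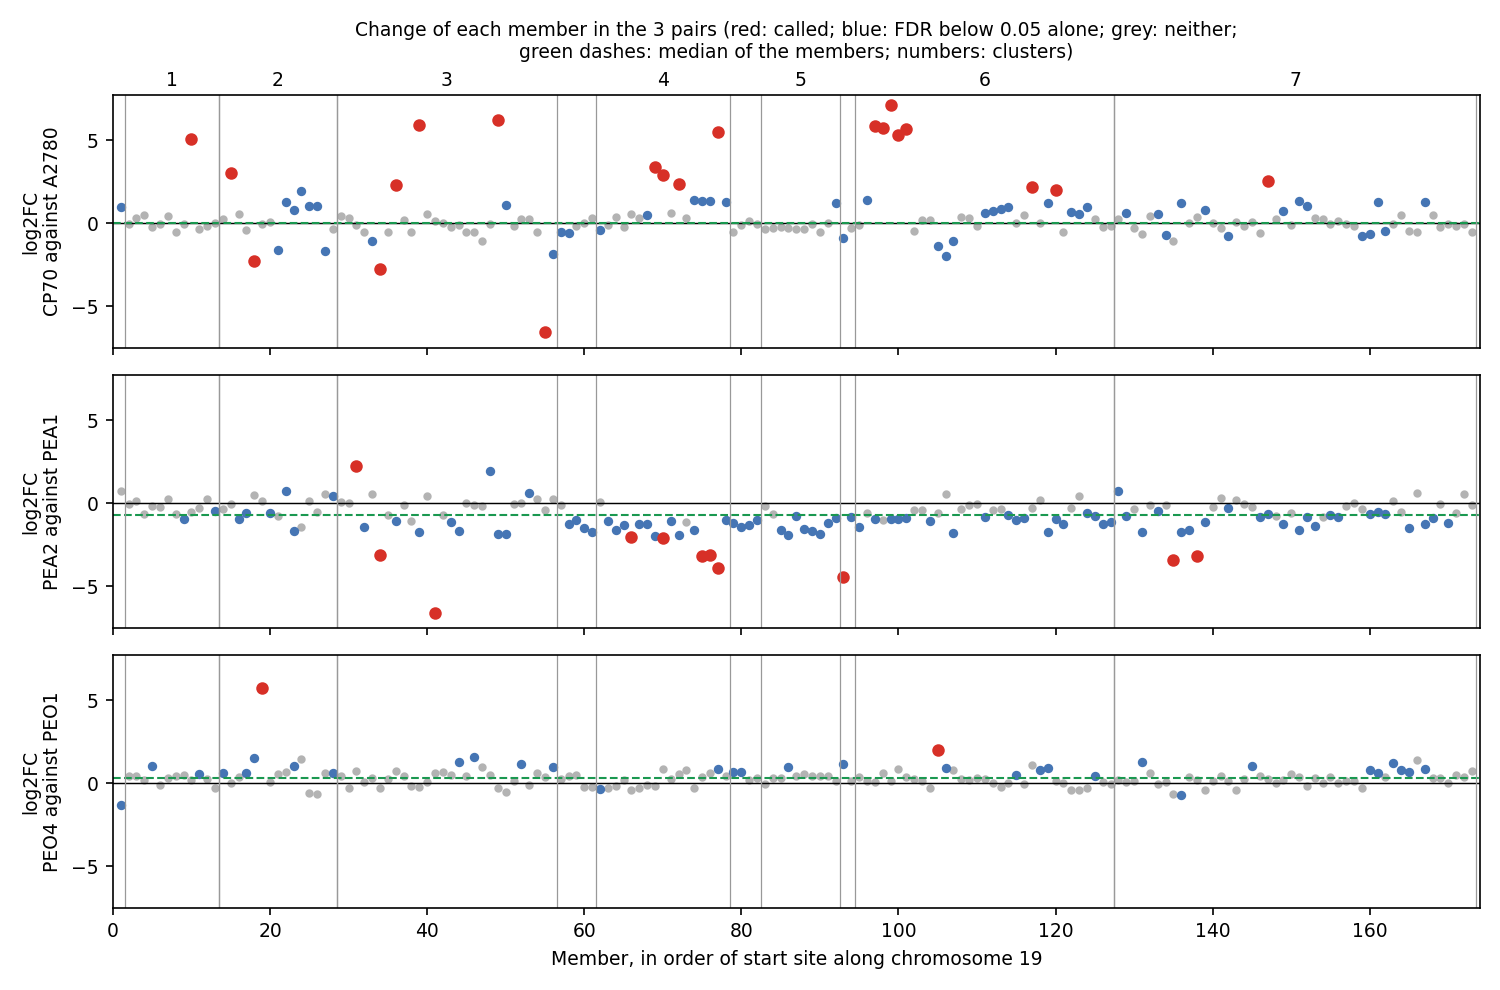
The log2FC of each of the 173 members (vertical axis) in order of start site (horizontal axis) in the A2780, PEA and PEO pairs from top to bottom, with called members in red, members past the FDR alone in blue and the median of the members as a green dashed line. The red group in cluster 6 of the top panel is the run of 5, most points of the middle panel lie below 0 (142 of 173), and most of the lower panel lie above 0 (136 of 173).

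In the PEO pair the members moved the other way and by less. The mean of 136 of 173 members was higher in PEO4 than in PEO1, with a median log2FC of 0.32 beside -0.02 over all genes. By FDR alone 31 were higher (17.9%, against 19.6% of all genes) and 3 lower (1.73%, against 21.9%). The 3 PEO4 libraries lay above the 3 PEO1 libraries for 77 members (44.5%, all genes: 27.8%) and below them for 11 (6.36%, all genes: 29.8%). Leaving out PEO1 replicate 3, PEO4 replicate 2 or PEO4 replicate 3 took the count of increases to 19, 18 and 18, and a fit of this pair alone gave 57 and voom weights 61.

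At |log2FC| above 2 the PEO pair had 2 members called higher (1.16%, against 2.86%) and 0 lower by limma (3.37% of all genes), also with voom weights. In either direction 6.22% of all genes were called. With no threshold on size, 5 members were lower at an unadjusted limma p below 0.05. ZNF69 of cluster 2 (11998597 to 12025144, plus strand) had 0, 0 and 0 reads in PEO1 and 17, 32 and 12 in PEO4, at least 30.4-fold higher (log2FC 5.74, SE 0.44, FDR 3.5e-09). It was silent in the A2780 pair too, with 1 read over 6 libraries, and on in PEA1 and PEA2 at 14.1 and 15.4 CPM. ZNF610 of cluster 6 had 8, 7 and 13 reads in PEO1 and 23, 34 and 26 in PEO4 (log2FC 2.02, SE 0.41, FDR 0.000468), just past the threshold, and lost its call without PEO1 replicate 3, PEO4 replicate 2 or PEO4 replicate 3 (1.88, 1.92 and 1.97). ZNF57, on the short arm outside the clusters, was the member off in PEO4 and on in all other lines, with 12, 14 and 23 reads in PEO1 and 6, 4 and 3 in PEO4 (log2FC -1.32, SE 0.32, FDR 0.00219).

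Cluster 3 was higher in the PEO lines than in the other 4. It summed to 551 ± 58.1 CPM in PEO1 and 879 ± 65.9 CPM in PEO4, against 276 to 332 CPM on average in the other 4 lines, and none of its 28 members was off in either PEO line. ZNF91, which represses SVA retrotransposons, carried part of that and was picked out after its values were seen. It had 474, 415 and 753 reads in PEO1 and 906, 1026 and 687 in PEO4, or 139 and 312 CPM on average (log2FC 1.17, SE 0.16, FDR 4.79e-06), against 41.1 to 62.5 CPM in the other lines. ZNF93, a repressor of LINE-1 elements in the same cluster, had 1 read over the 6 libraries of the A2780 pair and 12.4 and 15.5 CPM in PEO1 and PEO4. The change of ZNF93 between these lines (log2FC 0.32) did not pass the test (FDR 0.563).

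Over all members the summed expression was 2688 ± 178 CPM in A2780, 2848 ± 58.1 in CP70, 3016 ± 104 in PEA1, 1956 ± 294 in PEA2, 3644 ± 72.6 in PEO1 and 4561 ± 252 in PEO4 (SD, n = 3). Ordered by these sums the lines ran from PEA2 through A2780, CP70, PEA1 and PEO1 to PEO4, and of the neighbours in that order only A2780 and CP70 had libraries that overlapped. Cluster 6 went from 299 ± 36.9 CPM in A2780 to 460 ± 28.7 CPM in CP70 without overlap, while the libraries overlapped for cluster 7, at 751 to 826 CPM in A2780 and 783 to 813 CPM in CP70.

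**Figure D5:**
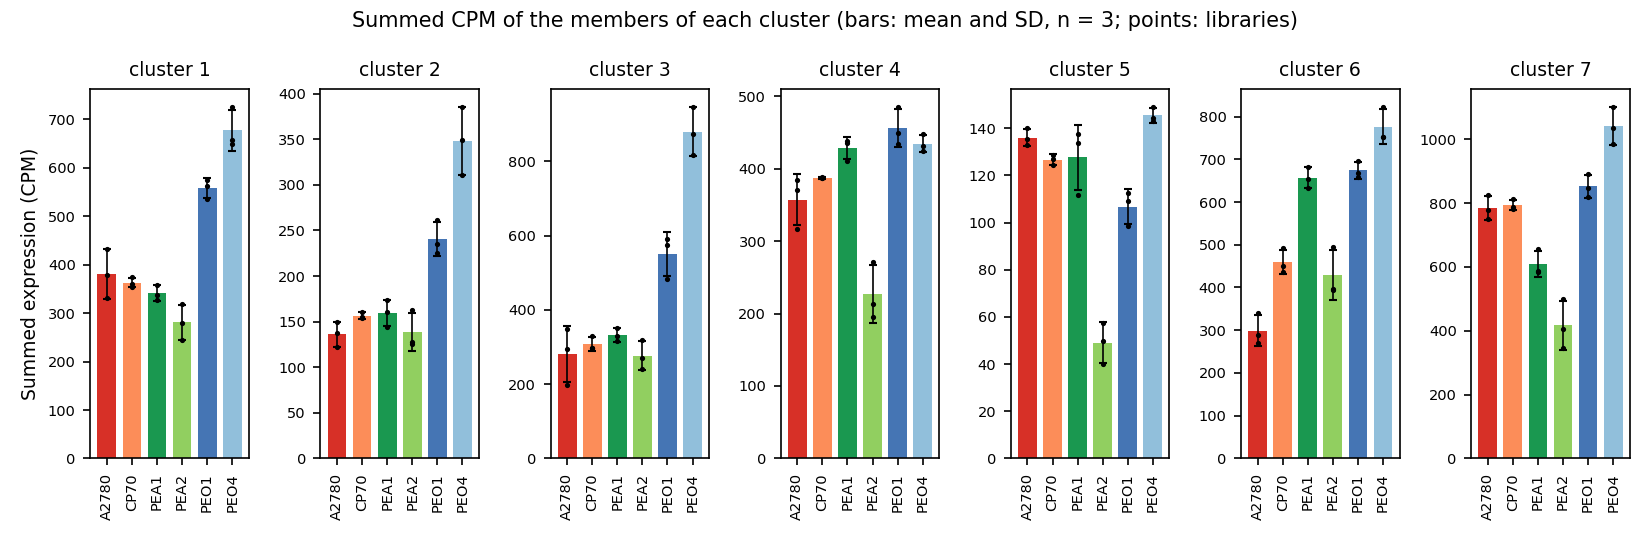
Summed expression in CPM (vertical axis, from 0 and with its own scale per panel) of the members of each of the 7 clusters in the 6 lines, as mean and SD of 3 libraries (bars) with the libraries as points. Clusters 1 to 3 are highest in PEO4 and PEO1, cluster 5 is lowest in PEA2 at 49.0 CPM, and cluster 6 is lowest in A2780 at 299 CPM.

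Among the 6 lines 83 members differed (F test of limma, FDR below 0.05 and a range of line means above 2), 48.0% against 46.2% of all genes, and 167 passed the FDR alone (96.5%, against 97.5%). Set against the mean of the other 5 lines, 39 members were lower in A2780 (22.5%, against 15% of all genes) and 2 higher (all genes: 4.18%). In CP70 27 were lower (15.6%, against 12.7%) and 1 higher (all genes: 3.97%). In PEA1 1 was lower (all genes: 5.27%) and 15 higher (all genes: 8.5%). In PEA2 8 were lower (all genes: 5.63%) and 4 higher (all genes: 10.3%). In PEO1 1 was lower (all genes: 3.83%) and 21 higher (all genes: 9.44%), and in PEO4 34 were higher (all genes: 9.43%). No member (0) was lower in PEO4 by limma or with voom weights (all genes: 3.8% by limma). With no threshold on size, 5 were lower in PEO4 at an unadjusted limma p below 0.05. Leaving out a single library gave 34 to 36 for PEO4 and 37 to 40 for A2780. A2780 and CP70 held most of the lower calls at |log2FC| above 2. Quantile normalization raised the 8 lower in PEA2 to 25, beside 28 in A2780 and 22 in CP70, and at |log2FC| above 1 PEA2 had the most, with 67 against 55 and 33.

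No member was called in all 3 pairs, and 3 were called in 2: ZNF90, ZNF568 and ZNF793. ZNF90 was lower in CP70 and in PEA2, near the floor in each. ZNF793 went from 0 reads in A2780 to 51, 27 and 26 in CP70, and from 19, 27 and 24 in PEA1 to 2, 4 and 1 in PEA2. Its changes differed between these pairs by -9.41 on the log2 scale (FDR 3.56e-12 in limma). ZNF568 also differed in direction, by -4.96 (FDR 4.1e-07), with CP70 at the floor, and lost its PEA call without PEA2 replicate 1 (-1.79). Over all members 41 (23.7%) had changes that differed between the PEA and A2780 pairs, at a difference above 2 and FDR below 0.05, against 20.4% of all genes (10% higher and 10.4% lower). Between the PEO and A2780 pairs 26 differed (15.0%, against 14.9%, that is 6.05% and 8.86%), and between the PEO and PEA pairs 27 (15.6%, against 19.4%, that is 8.58% and 10.9%). These shares were near those of all genes.

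Neighbouring members in a cluster resembled each other weakly in their changes. Across 154 neighbour pairs Pearson's r and Spearman's rho of log2FC were 0.42 and 0.36 for CP70 against A2780, 0.17 and 0.28 for PEA2 against PEA1 and 0.22 and 0.29 for PEO4 against PEO1. These points share libraries and, where paralogs are alike, possibly reads, and they are given as a description.

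The corepressor partners of KRAB proteins moved by less than the fold threshold in each pair. Of a list of 25 such genes 24 were in the table, and the largest |log2FC| was a rise in each pair. It was 1.30 in CP70 (HDAC2), 1.23 in PEA2 (TRIM24) and 1.37 in PEO4 (TRIM27), each against its sensitive partner. By FDR 5 were higher and 9 lower in CP70 (all genes: 22.2% and 17.7%), 7 and 7 in PEA2 (32.5% and 29.4%), and 6 and 2 in PEO4 (19.6% and 21.9%). TRIM28, the corepressor itself, had a mean log2 CPM of 9.78 ± 0.17 in A2780 and 9.47 ± 0.03 in CP70 (SD, n = 3), a log2FC of -0.31 (SE 0.12, FDR 0.0415), and log2FC of 0.10 and 0.08 in the PEA and PEO pairs (FDR 0.478 and 0.644). SETDB1, which methylates histone H3, was lower in CP70 (log2FC -0.65, SE 0.15, FDR 0.00125) and in PEA2 (-0.54, SE 0.15, FDR 0.00309). CBX5, a heterochromatin protein, was lower in PEA2 (-1.19, SE 0.10, FDR 1.66e-09), and DNMT1, the maintenance DNA methyltransferase, was lower in CP70 (-0.30, SE 0.09, FDR 0.0119). TRIM28, SETDB1, CBX5 and DNMT1 were picked out after their values were seen. Their falls do not stand for the list, in which other genes rose.

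Members that were off in some line had a lower median count of CG dinucleotides at their start. RefSeq promoter windows of 300 bases (250 before and 50 after the start, GRCh38.p14) matched 157 of 173 members, with a median of 20 CG dinucleotides against 14 over all 27305 promoters. The 98 matched members on in all 6 lines had a median of 22 (range 6 to 42), and the 42 that were off in at least 1 line 17 (range 8 to 35). Those off in A2780 and CP70 had 14.5 (20 promoters), and those off in A2780 and on in CP70 18 (10 promoters). The ranges overlapped widely, and this is a description without a test. Cluster 3, which held 8 of the 24 members off in A2780 and CP70, had low counts in either state. Its matched members on in all 6 lines had 8 (ZNF626) to 18 (ZNF101) CG dinucleotides. Those off in at least 1 line had 9 (ZNF85) to 16 (ZNF492). The part of this cluster in the lower medians was not tested.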

How the data were processed

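RNA was rRNA-depleted and sequenced from 3 replicates of each of 6 lines. The submitters' processing notes name Bowtie2, featureCounts, limma and hg19. The values deposited by the authors are log2 CPM with 0.5 reads added, for 12853 genes. The strand setting, the treatment of multiply mapped reads and the filter on genes are not given in the sources used here. Whole reads were recovered from these values (100% of values within 0.01 of a whole read), which gave the reads and CPM printed. All 18 libraries were fitted with 1 mean per line in limma 3.58.1 (R 4.3.3) with a trend, with Benjamini-Hochberg adjustment (FDR) over all 12853 genes. A gene was called at |log2FC| above 2 and FDR below 0.05. Contrasts were each resistant line against its sensitive partner, each line against the mean of the other 5, the differences between pairs, and the F test over 6 lines. A log2FC is on the scale of log2 CPM with 0.5 reads added and understates the change of low genes. Counting intervals are exact at 95%, and intervals and floors cover counting error only.

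Libraries held 1344098 to 7067336 reads on listed genes. Chi-square per degree of freedom between replicates of a line was 1.72 to 13.1, so no replicate was a repeat of another of its line. The highest values, 13.1 and 10.98, set PEO1 replicate 3, the deepest library, against PEO1 replicates 1 and 2, which gave 1.72 between them. The fit was tested on simulated data for CP70 against A2780 with 12853 genes, where 200 of 200 changed genes were recovered and 0 unchanged ones called. The changed genes were drawn from genes with a mean level well above the floor, and all genes shared the same dispersion. Recovery of genes that are silent in a line was therefore not tested. Same-numbered libraries of a pair did not deviate together (mean r 0.0185, 0.00063 and 0.00478), so numbers were not used as a block. Promoters were matched by symbol to RefSeq (GRCh38.p14), and hg19 coordinates come from the GRCh37 annotation. Members and gene lists were chosen with earlier results of these data known. By rule the text names, per pair, the 3 highest and 3 lowest called members without overlap and the longest run of called neighbours; per cluster the widest range of line means; per line up to 4 members off in it and on elsewhere, or the reverse; and members called in opposite directions. Other genes named, such as ZNF772, ZNF439, ZNF649, ZNF616, ZNF91, ZNF93 and the partner genes, were picked after their values were seen. Python 3.11.15, pandas 2.3.3, NumPy 2.4.6, SciPy 1.17.1 and matplotlib 3.10.9 were used. Alternatives were a fit per pair, a filter, quantile normalization, 2 reads added, voom weights, no trend, a replicate block, |log2FC| above 1, other limits for off, other cluster gaps and leaving out each library. The GC correction, and the alternatives for the counts by FDR alone and for the medians, were added after the data were seen.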

Additional observations from a re-analysis of the deposited data

Results flagged for a closer look

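Some members changed differently in different pairs, by limma tests of the difference itself at a size above 2 and FDR below 0.05, in shares near those of all genes. Between the PEA and A2780 pairs 41 members differed (23.7%, against 20.4% of all genes), between the PEO and A2780 pairs 26 (15.0%, against 14.9%), and between the PEO and PEA pairs 27 (15.6%, against 19.4%). The pairs share no library. For ZNF793 the change in the PEA pair minus that in the A2780 pair was -9.41 on the log2 scale, and for ZNF568 it was -4.96. Both had 0 reads in each A2780 library, and both were called lower in PEA2.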

How the results depend on the processing

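No called result reversed. A fit of each pair alone gave 3 members higher by FDR in the PEA pair, and 57 higher and 7 lower in the PEO pair, and voom weights gave 61 and 6 there. Quantile normalization gave 11 higher in CP70, 26 lower in PEA2 and 4 higher in PEO4, and against the other 5 lines 6 higher in CP70, 5 lower in PEA1, 2 higher and 25 lower in PEA2, 2 lower in PEO1 and 1 lower in PEO4. It moved the median of all genes in the PEA pair from 0.01 to -0.10, with the members at -0.87, and it turned the sign of the members' median in the A2780 pair, from 0.03 to -0.02. With 2 reads added, 1 member was lower in CP70, 0 higher in PEA2 and 1 higher in PEO4, and against the other 5 lines 2 were higher and 5 lower in PEA2. The GC correction, alone and with the replicate block, gave 3 higher in CP70 than the other 5. At |log2FC| above 1 there were 34 higher and 10 lower in CP70, 2 and 57 in PEA2, and 12 and 1 in PEO4, with 159 in the F test and 83, 53 and 83 differences between pairs. Against the other 5 lines that threshold gave 7 higher in A2780, 16 higher in CP70, 38 higher and 12 lower in PEA1, 14 and 67 in PEA2, 40 and 2 in PEO1, and 70 and 1 in PEO4. A limit of 6 reads called 11 members off in PEA1, 31 in PEA2, 3 in PEO1 and 2 in PEO4. At most 3 reads in each library gave 7 in PEA2 and 0 in PEO4, and a line mean at or below 0 gave 6 and 0. The causes were not tested.

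Leaving out each library gave 12 to 19 members lower by FDR in CP70 (12 without A2780 replicate 3) and a median of 0.011 to 0.11 there, the highest without CP70 replicate 3. The PEA pair had 0 to 2 higher (0 without PEA1 replicate 3, 2 without PEA2 replicate 3), 10 to 15 lower, 3 to 7 higher by FDR (3 without PEA2 replicate 2) and 83 to 97 lower by FDR. The PEO pair had 1 to 2 higher, 18 to 26 higher by FDR and 1 to 2 lower by FDR. Against the other 5 lines, 2 were higher in CP70 whichever of its libraries was left out, 1 to 3 lower in PEA1, 10 to 11 lower in PEA2 and 0 to 1 lower in PEO4 (1 without PEO4 replicate 1), and 1 to 2 were off in PEO4 (2 without PEO4 replicate 2). Of 345 single-gene values under alternatives 333 kept their call, and 12 values of 6 results lost it, for ZNF506, ZNF568 (in 2 pairs), ZNF610, ZNF829 and ZNF90. ZNF610 lost its call without PEO1 replicate 3 (1.88), PEO4 replicate 2 (1.92) or PEO4 replicate 3 (1.97), and ZNF568 in the PEA pair without PEA2 replicate 1 (-1.79).

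With the replicate block the A2780 pair had 17 members higher and 3 lower (48 and 18 by FDR), the PEA pair 1 and 10 (6 and 91), the PEO pair 2 and 0 (27 and 2) and the F test 83, and it moved none of these counts by over 1.5 times. Low depth in PEA1 limits statements on members of few reads there.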
